A study of Mus musculus with 18 samples.

Results

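Arrays of mouse embryonic stem cells with cyclosporin A (CsA) at day 0 of LIF withdrawal were compared with day 0 arrays without it. This comparison took 4 of the 18 arrays of the series, 2 labelled d0 -LIF +CsA and 2 labelled d0 -LIF, and they were chosen by these titles alone. Both groups came from CGR8 cells, an embryonic stem cell line of strain 129P2/Ola for which the labels name no transgene, so the groups share genotype, line and day and differ in the label CsA. Total RNA was hybridised to Illumina Sentrix Mouse-6 v1.1 BeadChips, which carry each probe sequence on many beads. The labels do not say whether, or for how long, the day 0 cells had been given CsA. Nor do they say whether the 2 arrays of a group stand for 2 cultures: the p-values reflect the spread among the arrays given here, and that spread may be technical. For comparison, the same cells at days 1 and 3 of LIF withdrawal with and without CsA were used, and ideltaCnAES cells, in which withdrawal of tetracycline (Tc) induces deltaCnA, at days 0, 1 and 4, with 2 arrays a group.

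Calcineurin is a calcium-activated phosphatase that dephosphorylates NFAT transcription factors and lets them enter the nucleus. CsA binds cyclophilins, and the complex of drug and cyclophilin blocks calcineurin; deltaCnA is a form of the catalytic subunit that is active without calcium. LIF, acting through STAT3, holds mouse embryonic stem cells undifferentiated, while autocrine Fgf4 and ERK signalling moves them towards differentiation. The title of the series names calcineurin and NFAT signalling in these cells as its subject.

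Of 46632 probes, 19071 were detected at a deposited p-value under 0.05 on both arrays of at least 1 of the 2 groups, and they stood for 9966 named genes. Values given here are background-corrected, quantile-normalised intensities on a linear scale in arbitrary units, and differences are CsA minus no CsA on the log2 scale with the standard error of the difference (n = 2 arrays a group). A gene was called at an adjusted p under 0.05 in limma. Mean deposited intensity was 349 and 324 on the CsA arrays, against 404 and 347 on the no-CsA arrays, and 41.0% to 41.8% of probes were detected on each. All 7 embryonic stem cell markers (Pou5f1, Sox2, Nanog, Sall4, Zfp42, Utf1 and Tdgf1) were detected on all 4 arrays and 0 of them were called. The Tdgf1 probe was dim, at 43.9 to 54.5. Replicates correlated at r = 0.9937 (CsA) and r = 0.9920 (no CsA) across genes, which are not independent, against 0.9806 to 0.9853 between groups. The first principal component of the 4 arrays, with 63.9% of the variance, placed the CsA arrays at -20.0 and -15.0 and the no-CsA arrays at 14.9 and 20.0.

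The CsA arrays differed from the no-CsA arrays by many changes of modest size. Of 9966 genes, 1516 were called (15.2%), 712 higher with CsA (7.14%) and 804 lower (8.07%), and 29.4% had an unadjusted p under 0.05. The median change was 1.52-fold among the higher genes and 1.51-fold among the lower ones, and 56 higher (0.562%) and 59 lower (0.592%) genes had changed by at least 2-fold. Among the most raised genes were Cox6a2, the heart and muscle form of a cytochrome c oxidase subunit, the secretory-cell transcription factor Bhlha15 and Ddit3 (CHOP), a transcription factor of stress responses. Among the most lowered were the Nodal antagonists Lefty1 and Lefty2 and the cyclin-like gene Ccno; Fbxw5 had a larger difference from a probe that also split replicates of other groups. In bulk RNA, fewer cells of a type and less RNA per cell cannot be told apart. With the arrays scaled to a common median in place of quantile normalisation, 500 genes were higher and 996 lower, so 33.4% of calls were higher, against 47.0% in the fit used here. The number of called genes was 503 without CsA replicate 1, 918 without CsA replicate 2 and 696 without no-CsA replicate 2; the count of genes at least 2-fold lower was 93 without CsA replicate 2 and 100 without no-CsA replicate 1.

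**Figure D1:**
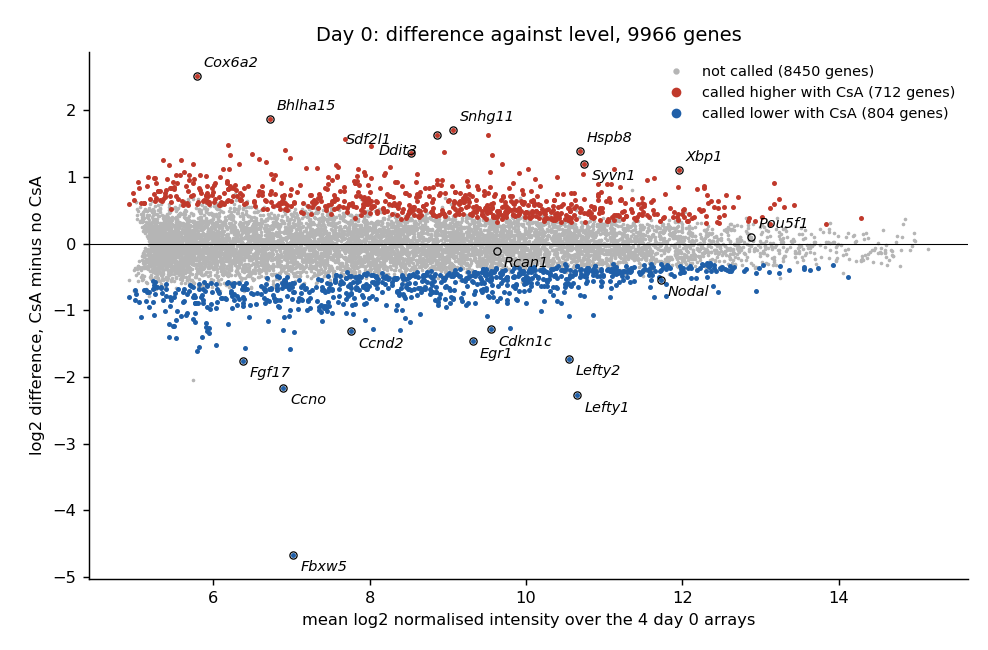
The plot sets the log2 difference at day 0 (CsA minus no CsA, vertical axis) of 9966 genes against their mean log2 normalised intensity over the 4 day 0 arrays (horizontal axis), with called genes coloured by direction and some named genes circled. Calls lie above and below 0 (712 and 804 genes) at dim and bright levels alike, and Pou5f1 and Rcan1 lie near 0.

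Genes of the endoplasmic reticulum (ER), where secreted and membrane proteins fold, were higher on the CsA arrays as a group. Of 19 measured chaperones and folding enzymes of the ER, 17 were higher with CsA and 0 lower, beside 7.14% and 8.07% of all genes. Their median difference was 0.72 over the 19, against -0.03 over all genes. Of 23 genes of ER-associated degradation and of translocation into the ER, 15 were higher and 0 lower, with a median of 0.54. Intensities summed over the chaperone list were 37157 and 41448 on the CsA arrays, against 22709 and 26511 on the no-CsA arrays. Another 6 chaperone genes and 4 degradation and translocation genes with a probe did not pass the detection filter and are not counted here. Without CsA replicate 2, 10 chaperone genes were called higher. The degradation and translocation list had 9 calls without either CsA replicate and 8 without no-CsA replicate 1.

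Among the chaperones and folding enzymes, Sdf2l1, a component of an ER chaperone complex, read 504 and 696 with CsA, against 229 and 230.3 without, a difference of 1.37 ± 0.19 (limma, adjusted p = 6.66e-05). Pdia4 and Pdia6 are protein disulphide isomerases, which form and shuffle disulphide bonds; Pdia4 read 1259.7 and 1859 with CsA and 636 and 780.1 without (1.12 ± 0.15, adjusted p = 3.24e-05). For both genes the lowest CsA array lay above the highest no-CsA array. Hsp90b1 (GRP94), the Hsp90 of the ER, read 4448 and 4632 against 2468 and 3001 (0.74 ± 0.11), and Hyou1, a large Hsp70-like chaperone, read 289 and 257 against 118 and 154 (1.01 ± 0.18). Hspa5 (BiP), the main ER Hsp70 and a sensor of unfolded protein, was at least 1.87-fold higher (adjusted p = 0.00245). Its probe was dim, with 74.0 and 72.2 on the CsA arrays, against 29.7 and 43.6 on the no-CsA arrays, of which 1 of 2 was detected. All 17 called members had both CsA arrays above both no-CsA arrays. Called members of all other lists also had groups that did not overlap, so this goes with the call and is no further support. Over all genes, called or not, the groups did not overlap in either direction for 55.4%.

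Degradation and translocation genes moved the same way. Syvn1 (Hrd1), the ubiquitin ligase at the centre of ER-associated degradation, read 2387 and 2826 with CsA, against 1106 and 1163 without (1.20 ± 0.13, adjusted p = 5.09e-06). Selenos, a selenoprotein that recruits the extracting ATPase to the ER membrane, read 3281 and 3281 against 1448 and 1583 (1.12 ± 0.16). Edem2, a mannosidase-like protein that marks glycoproteins for disposal, read 3115 and 3196 against 1697 and 1798 (0.85 ± 0.12). The CsA arrays of these 3 genes did not overlap the no-CsA arrays. Derl3, a channel-like protein of the same pathway, was higher (1.02 ± 0.25), but its adjusted p was 0.0793 without CsA replicate 2 and 0.063 without no-CsA replicate 1. Sec61b, a subunit of the channel through which proteins enter the ER, was higher too (0.64 ± 0.10). Edem1, Ssr4, Herpud1, Derl2, Srp19, Spcs1, Ssr2 and Sec62 were measured and not called, with differences between -0.40 (Sec62) and 0.54 (Edem1).

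**Figure D2:**
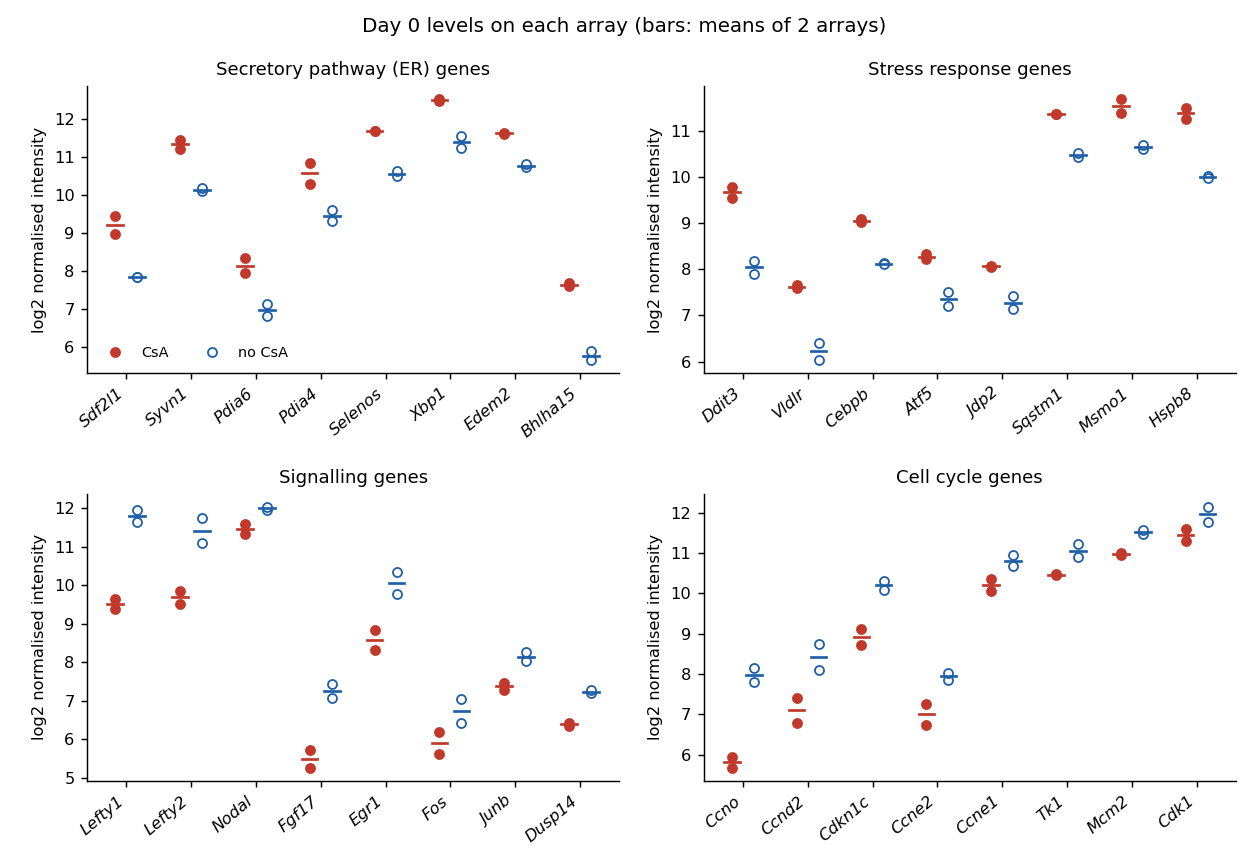
Log2 normalised intensity (vertical axis) is plotted on each of the 4 day 0 arrays for 8 genes in each of 4 groups, with CsA as filled points left of no CsA as open points and bars for the mean of 2 arrays. The genes were chosen from those called, higher in the upper panels and lower in the lower panels, so the sides their points take are no further result. Both CsA points lie above both no-CsA points in the upper panels and below them in the lower panels. Over all genes, called or not, the groups did not overlap for 55.4%.

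When unfolded protein accumulates in the ER, the transcription factors ATF6 and XBP1 activate chaperone genes through a promoter element called ERSE, in which CCAAT and CCACG are spaced by 9 bases. Promoter windows from 250 bases before to 50 bases after each start (RefSeq, build GRCm38.p6) were searched on both strands for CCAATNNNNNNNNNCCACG. It was present for 37 of 27025 genes with a window (0.137%), of which 14 were measured at day 0. Of these 14, 10 were called higher with CsA and 0 lower, and they are Syvn1, Pdia6, Ero1b, Adcy3, Derl3, Hspa5, Alg12, Creld2, Hsp90b1 and Canx. Adjusted p for Adcy3 was 0.0633 without no-CsA replicate 2, for Alg12 0.053 without no-CsA replicate 1, and for Canx 0.0541 without CsA replicate 1, 0.167 without CsA replicate 2 and 0.167 without no-CsA replicate 2. The other 4, Spats2l, Acacb, Pan2 and Zfp57, were not called, with differences from -0.02 (Zfp57) to 0.19 (Spats2l). By direction, the element was present for 10 of 584 higher genes with a window (1.71%), 0 of 646 lower genes and 4 of 6842 genes not called (0.0585%). A core NFAT-binding sequence, TGGAAA on either strand, was present for 19.7% of the higher genes, 21.7% of the lower genes and 19.04% of those not called, and for 23.95% of all genes with a window. A match is a string of letters and not a measured binding site.

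The promoter windows of 5 ERSE genes called higher are printed to show the element beside the values given above, 5′ to 3′ on the gene's strand with the ERSE match in capitals. Hspa5 lies at chr2:34771840-34772139 (plus strand), Hsp90b1 at chr10:86705395-86705694 (minus strand), Pdia6 at chr12:17266339-17266638 (plus strand), Syvn1 at chr19:6046326-6046625 (plus strand) and Derl3 at chr10:75893148-75893447 (plus strand).
Hspa5: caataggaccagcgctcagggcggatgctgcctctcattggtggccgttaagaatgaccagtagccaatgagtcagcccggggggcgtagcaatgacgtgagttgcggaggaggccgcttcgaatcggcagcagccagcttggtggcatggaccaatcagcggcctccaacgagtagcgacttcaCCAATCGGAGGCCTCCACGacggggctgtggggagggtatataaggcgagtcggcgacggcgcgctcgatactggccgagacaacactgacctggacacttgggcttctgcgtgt
Hsp90b1: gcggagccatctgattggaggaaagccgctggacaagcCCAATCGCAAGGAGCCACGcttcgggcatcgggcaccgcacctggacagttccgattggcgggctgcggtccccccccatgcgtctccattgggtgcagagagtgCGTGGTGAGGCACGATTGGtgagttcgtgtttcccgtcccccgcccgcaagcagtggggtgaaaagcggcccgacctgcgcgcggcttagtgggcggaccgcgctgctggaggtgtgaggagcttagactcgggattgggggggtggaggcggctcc
Pdia6: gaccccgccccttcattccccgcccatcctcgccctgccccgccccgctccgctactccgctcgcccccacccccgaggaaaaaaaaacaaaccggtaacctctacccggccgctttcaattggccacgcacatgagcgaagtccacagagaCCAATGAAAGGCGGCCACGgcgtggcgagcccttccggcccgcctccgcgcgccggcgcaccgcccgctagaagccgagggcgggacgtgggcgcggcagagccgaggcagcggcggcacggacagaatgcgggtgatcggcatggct
Syvn1: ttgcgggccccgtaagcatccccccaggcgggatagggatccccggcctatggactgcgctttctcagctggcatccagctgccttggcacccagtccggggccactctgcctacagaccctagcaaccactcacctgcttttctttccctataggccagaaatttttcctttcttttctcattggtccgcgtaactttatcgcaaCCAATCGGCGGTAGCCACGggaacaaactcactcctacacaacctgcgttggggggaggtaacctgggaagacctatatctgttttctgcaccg
Derl3: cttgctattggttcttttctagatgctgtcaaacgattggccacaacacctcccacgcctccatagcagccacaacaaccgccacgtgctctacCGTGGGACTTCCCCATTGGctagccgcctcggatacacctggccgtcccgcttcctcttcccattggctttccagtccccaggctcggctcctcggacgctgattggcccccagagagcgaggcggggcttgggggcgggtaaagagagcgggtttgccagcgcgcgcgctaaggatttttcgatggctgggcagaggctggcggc
Hsp90b1 had 2 matches, 1 in each orientation, and that of Derl3 lay in the reverse orientation. Creld2, an ER protein with disulphide isomerase activity, and Alg12, a mannosyltransferase that builds the sugar donated to new glycoproteins, also carried it, and differed by 0.84 ± 0.12 and 0.90 ± 0.20. Their windows overlap on opposite strands and share a single match, so these genes are not separate occurrences of the element. Sdf2l1 and Pdia4 were higher and had no match to these letters in their windows.

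Among the regulators of the unfolded protein response, 4 of 8 measured genes were higher and 0 lower, beside 7.14% and 8.07% of all genes. Xbp1, whose spliced mRNA encodes an activator of chaperone genes, read 5926 and 5691 with CsA, against 2409.8 and 3021 without (1.11 ± 0.14, adjusted p = 2.15e-05). Bhlha15 (Mist1), a factor of secretory cells that XBP1 is known to induce, read 206 and 197 against 51.0 and 59.8 (1.87 ± 0.19, adjusted p = 3.09e-06). A second Bhlha15 probe was also called higher and the third was not (differences of 1.22 and 0.05). Wfs1, an ER membrane protein, and Atf6b, a relative of ATF6, were higher by 0.62 and 0.33. The call of Wfs1 ended without CsA replicate 1 or 2 or no-CsA replicate 1 (adjusted p = 0.061, 0.136 and 0.232). That of Atf6b ended without any 1 of the 4 arrays (adjusted p = 0.0597 to 0.221). Another 6 genes of the list did not pass the detection filter.

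The integrated stress response, in which phosphorylation of eIF2 alpha favours translation of ATF4 and induction of its targets, was called in part. Of 21 measured genes, 8 were higher and 0 lower, beside 7.14% and 8.07% of all genes, and the median difference was 0.44. Ddit3, which PERK and ATF4 induce, read 747 and 885 with CsA, against 289.9 and 239.9 without (1.62 ± 0.20, 3.08-fold, adjusted p = 1.7e-05). Cebpb, its partner factor, read 519 and 540.1 against 281 and 276 (0.93 ± 0.19), and Vldlr, a lipoprotein receptor, read 201 and 193 against 84.7 and 65.7 (1.40 ± 0.30). In all 3 genes the groups did not overlap. Trib3, a pseudokinase induced by CHOP, was higher by 0.71 ± 0.23, a call that ended without any 1 of the 4 arrays (adjusted p = 0.0717 to 0.19), and the transcription factors Atf5 (0.90 ± 0.28) and Jdp2 (0.79 ± 0.23) and 2 other genes also passed the test. Adjusted p for Atf5 was 0.155 without CsA replicate 1, 0.0791 without CsA replicate 2 and 0.193 without no-CsA replicate 2, and for Jdp2 0.11 without CsA replicate 1, 0.0943 without CsA replicate 2 and 0.179 without no-CsA replicate 2. Other targets of ATF4 were not called: Asns, asparagine synthetase, differed by 0.48 ± 0.19, Chac1 by 0.17 ± 0.41 and Atf4 itself by 0.37 ± 0.25. Of 17 aminoacyl-tRNA synthetases, which ATF4 also induces, 1 was higher (Qars, 0.34 ± 0.11), and that call ended without 3 of the 4 arrays (adjusted p = 0.214 without CsA replicate 1, 0.0774 without CsA replicate 2 and 0.312 without no-CsA replicate 2). Of 13 genes of serine, one-carbon and amino acid synthesis, 0 were higher and 1 was lower (Pycrl, -0.53 ± 0.13; adjusted p = 0.121 without CsA replicate 1 and 0.107 without no-CsA replicate 2). The count of 8 was 3 without CsA replicate 1, 4 without CsA replicate 2 and 3 without no-CsA replicate 2.

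Part of the sterol and oxidative stress genes was higher too, beside 7.14% of all genes higher and 8.07% lower. Of 19 measured genes of cholesterol synthesis and uptake, 6 were higher and 0 lower (median 0.30), with Msmo1, a methylsterol oxidase, at 3296 and 2658 with CsA, against 1542 and 1653 without (0.89 ± 0.14), and Cyp51, the lanosterol demethylase, at 1564 and 1275 against 876 and 756 (0.79 ± 0.14). Stard4, a sterol carrier, also passed the test (0.66 ± 0.17; adjusted p = 0.144 without CsA replicate 1 and 0.106 without no-CsA replicate 2), as did 3 others; Sqle, Fdps, Dhcr7 and Lss did not (differences of 0.07, 0.01, 0.01 and -0.17). The count was 2 without CsA replicate 1 or without no-CsA replicate 2, 3 without no-CsA replicate 1 and 4 without CsA replicate 2. Of 12 targets of NRF2, the oxidative stress factor, 5 were higher and 1 lower. Sqstm1 (p62), an autophagy adaptor, read 2619 and 2635 against 1372 and 1465 (0.89 ± 0.12), whereas Nqo1, a common readout of NRF2, differed by -0.04 ± 0.17 and was not called, and the glutathione transferase Gsta4 was lower (-0.50 ± 0.10). The 5 calls became 1 without CsA replicate 2 and 2 without no-CsA replicate 1.

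Heat shock genes of the cytosol and mitochondria moved in both directions, with 2 higher and 1 lower of 11 and a median of -0.08. Over all genes, 7.14% were higher and 8.07% lower. Hspb8, a small heat shock protein, read 2888 and 2451 with CsA, against 1040.0 and 1001 without (1.38 ± 0.18, adjusted p = 2.74e-05), and the chaperone Hsp90aa1 was lower from its brightest probe (-0.66 ± 0.22; adjusted p = 0.144 without CsA replicate 1, 0.159 without CsA replicate 2, 0.197 without no-CsA replicate 1 and 0.0867 without no-CsA replicate 2). Its second probe differed by 0.39 and was not called, and the mean of both by -0.13, not called either, while Hspb1, Bag3 and Dnajb1 differed by 0.16, 0.14 and -0.22 and were not called. Of 20 genes of glycolysis and the hypoxia response, 4 were higher and 1 lower: Vegfa, the vascular growth factor, read 355 and 376 against 179 and 190.4 (0.99 ± 0.21), and the glucose transporter Slc2a1 read 5681 and 7606 against 3778 and 4170.5 (0.73 ± 0.15). The call of Slc2a1 ended without CsA replicate 2 (adjusted p = 0.0512). Among 14 cytochrome c oxidase subunits, Cox6a2 was the only one called. It read 179 and 97.1 on the CsA arrays, against 25 and 21.3 on the no-CsA arrays, neither of which detected it, and was at least 3.73-fold higher (adjusted p = 0.000354). Cox6a1, the form found in most tissues, differed by 0.19 ± 0.09.

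**Figure D3:**
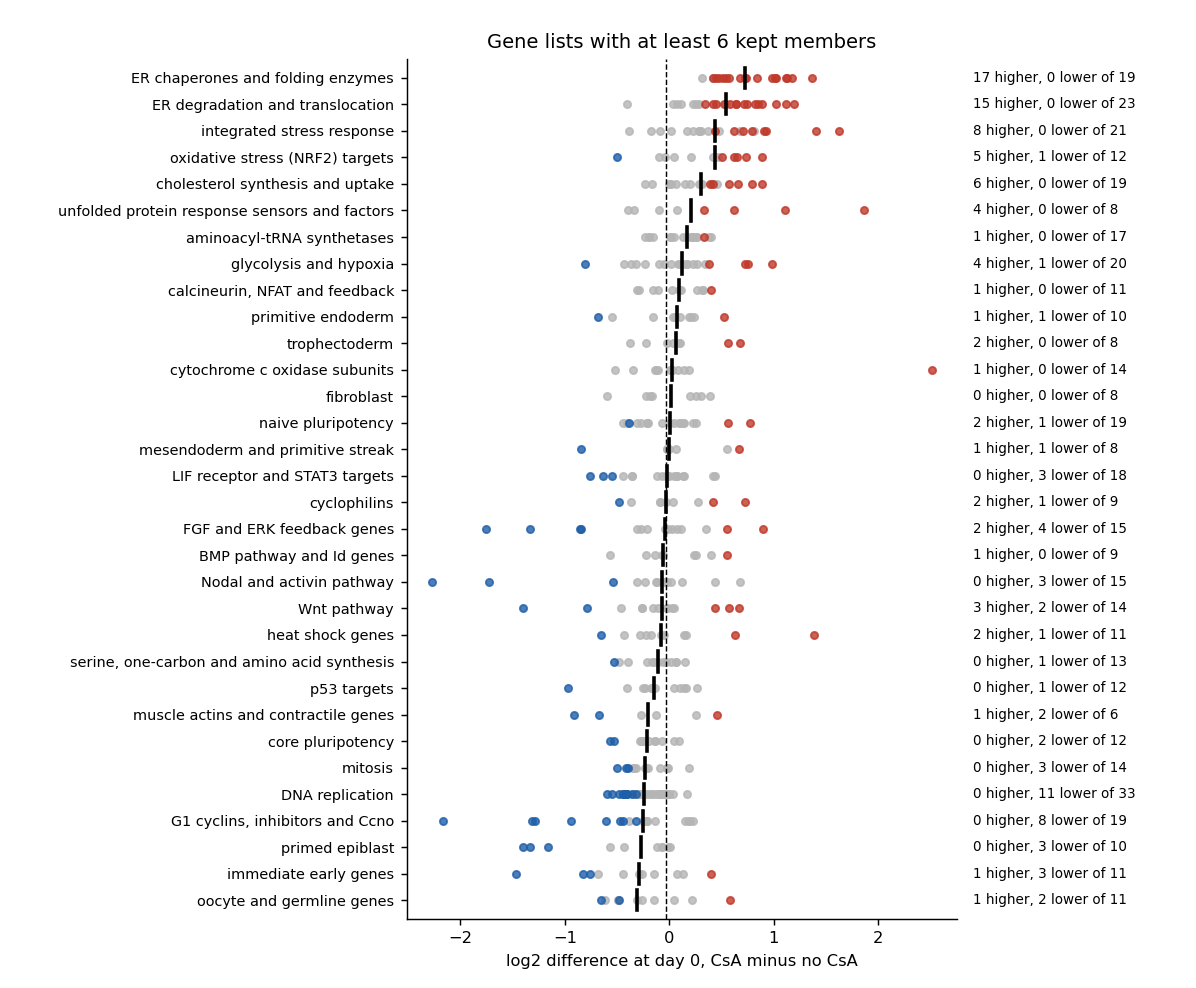
Each row is a gene list with at least 6 measured members, ordered by median, and each point is the day 0 log2 difference (CsA minus no CsA, horizontal axis) of a member, red where called higher, blue where called lower and grey otherwise. Black bars mark list medians and the dashed line the median of all genes (-0.03); the ER lists lie furthest to the right, with 17 of 19 and 15 of 23 members called higher.

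Through the Nodal pathway, Nodal and activin ligands activate Smad2 and Smad3 and induce the Lefty genes as feedback inhibitors. Of 15 measured genes of the pathway, 3 were lower with CsA and 0 higher, beside 8.07% and 7.14% of all genes. Lefty1 read 804 and 664 with CsA, against 3951 and 3173 without (-2.28 ± 0.29, 4.84-fold lower, adjusted p = 2.87e-05). Lefty2 read 917 and 732 against 3412 and 2163 (-1.73 ± 0.29, adjusted p = 0.000403). For both antagonists, the highest CsA array lay below the lowest no-CsA array. The ligand Nodal, itself a target of the pathway, read 2546 and 3067 against 3954 and 4191 (-0.54 ± 0.11), and a second Nodal probe was called lower too (-0.50). The call of Nodal ended without CsA replicate 1 (adjusted p = 0.074). The other 12 measured genes of the pathway were not called, among them the co-receptor Tdgf1 (-0.07), the Smads Smad2 (-0.04) and Smad3 (-0.31), and their partner Foxh1 (-0.12). The Tdgf1 probe was dim (54.5 and 43.9 with CsA, 53.1 and 49.4 without), which limits the change it could show.

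Of 15 measured genes of FGF signalling and its feedback, 4 were lower and 2 higher, beside 8.07% and 7.14% of all genes. Fgf17, a ligand, read 38.5 and 53.1 with CsA, against 134 and 174 without (-1.76 ± 0.22, adjusted p = 2.74e-05), and Dusp14, a phosphatase, read 86.0 and 81.8 against 147 and 155 (-0.85 ± 0.18). Fgf15, another ligand, was at least 2.52-fold lower, detected on 1 of 2 CsA arrays and both no-CsA arrays. The 2 higher genes were Phlda1 (0.90 ± 0.23; adjusted p = 0.0555 without CsA replicate 1, 0.0612 without CsA replicate 2 and 0.161 without no-CsA replicate 1) and the ERK phosphatase gene Dusp5 (0.55 ± 0.16; adjusted p = 0.113 without CsA replicate 1, 0.0682 without CsA replicate 2 and 0.189 without no-CsA replicate 2). The receptor Fgfr2 was lower (-0.86 ± 0.17), with adjusted p = 0.0501 without CsA replicate 1; a second probe differed by -0.21 and was not called. Fgf4, which stem cells secrete, and the ERK feedback genes Dusp6, Spry4 and Etv4 differed by -0.27, -0.02, -0.31 and 0.03 and were not called. Of 11 immediate early genes, which ERK and calcium signals induce within minutes, 3 were lower and 1 higher, beside the same shares. Egr1 read 459.7 and 322 with CsA, against 1288 and 874 without (-1.47 ± 0.26, adjusted p = 0.000691). Fos (-0.82 ± 0.24) and Junb (-0.76 ± 0.21) were also lower; the Fos call ended without CsA replicate 2 or no-CsA replicate 1 (adjusted p = 0.239 and 0.238), and that of Junb without CsA replicate 1 or no-CsA replicate 2 (adjusted p = 0.135 and 0.137).

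Wnt genes were called in both directions, and 1 BMP gene was higher, beside 7.14% of all genes higher and 8.07% lower. Lef1, a transcription factor of the Wnt pathway, was at least 1.95-fold lower, with 22.9 and 30.5 on the CsA arrays, neither of which detected it, against 72.4 and 67.5 on the no-CsA arrays (adjusted p = 0.00137). Of 14 Wnt genes, 3 were higher and 2 lower, and Axin2, the usual readout of the pathway, differed by -0.46 ± 0.21 and was not called. The receptor gene Fzd5 was called higher from its brightest probe (0.44 ± 0.11), while another probe was called lower (-0.53); the mean of its probes differed by -0.13 and was not called. With the brightest probe, its adjusted p was 0.187 without CsA replicate 1 and 0.0979 without no-CsA replicate 2. Of 9 BMP genes, 1 was higher (Smad1, 0.55 ± 0.17; adjusted p = 0.0861 without CsA replicate 1, 0.175 without CsA replicate 2 and 0.247 without no-CsA replicate 1), with its other probes at 0.62, called, and -0.03, not called, and the targets Id1, Id2 and Id3 differed by 0.25, -0.06 and -0.57 and were not called.

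Cell cycle genes were lower where they were called at all. Of 19 G1 cyclins, kinases, inhibitors and Ccno, 8 were lower and 0 higher, beside 8.07% and 7.14% of all genes. The median of the list was -0.25, against -0.03 over all genes. Ccno read 51.2 and 61.5 with CsA, against 223 and 285 without (-2.17 ± 0.23, 4.49-fold lower, adjusted p = 3.09e-06). Ccnd2, a D-type cyclin, read 111 and 171 against 275 and 427 (-1.31 ± 0.23), and a second Ccnd2 probe was called lower by more (-2.08). For both cyclins, the higher CsA array lay below the lower no-CsA array. Cdkn1c (p57), an inhibitor of cyclin-dependent kinases and an imprinted gene, was lower too, with 419.9 and 553 against 1093 and 1263 (-1.29 ± 0.13, adjusted p = 3.09e-06). Ccnd1, Ccnd3, Ccne1, Ccne2 and Cdk4 passed the test with differences from -0.94 (Ccne2) to -0.32 (Cdk4), and Cdkn1a (p21) and E2f1 did not (-0.23 and 0.15). The calls of Ccnd3 and Cdk4 ended without any 1 array (adjusted p = 0.0785 to 0.255 and 0.0614 to 0.241) and that of Ccnd1 without CsA replicate 1 (0.124). Ccne1 and Ccne2 lost theirs without CsA replicate 1 (adjusted p = 0.184 and 0.174) or no-CsA replicate 2 (0.158 and 0.0885), and the 8 calls of the list became 3 and 4 without those arrays.

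Of 33 DNA replication genes, 11 were lower, by 1.25- to 1.51-fold, and 0 higher, beside 8.07% and 7.14% of all genes. Of the 33 differences, 31 were negative and 2 positive, while 4618 of all 9966 genes had a positive difference. Mcm2, a subunit of the replicative helicase, read 1976 and 2037 with CsA, against 2839.9 and 3019 without (-0.55 ± 0.11), and the thymidine kinase gene Tk1 read 1400.0 and 1425 against 1912 and 2379.6 (-0.59 ± 0.15). Pcna, the sliding clamp, differed by -0.22 ± 0.16 and was not called. Of 14 mitosis genes, 3 were lower, including Cdk1 (-0.51 ± 0.13), and 0 higher, beside the same shares of all genes. The replication count was 2 without CsA replicate 1, 4 without CsA replicate 2, 5 without no-CsA replicate 1 and 4 without no-CsA replicate 2, and 5 when the 4 day 0 arrays were fitted alone. The calls of Tk1 and Cdk1 ended without CsA replicate 1 (adjusted p = 0.0793 and 0.169) or without no-CsA replicate 2 (0.158 and 0.177).

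Genes of the undifferentiated state were called at about the share of all genes (15.2%), with 3 of 19 naive pluripotency genes, 2 of 12 core pluripotency genes and 3 of 18 genes of the LIF receptor and STAT3 targets. Of the 19 naive pluripotency genes, 2 were higher and 1 lower, with a median of 0.00, and Klf4 read 1866 and 1545 with CsA, against 1833 and 1730.3 without (-0.07 ± 0.17, adjusted p = 0.832). Pecam1, a surface protein of naive cells, was higher (0.77 ± 0.16), as was the factor Tbx3 (0.56 ± 0.17); Nr5a2 was lower (-0.39 ± 0.12). The call of Tbx3 ended without CsA replicate 1 or no-CsA replicate 2 (adjusted p = 0.263 and 0.269), and that of Nr5a2 without any 1 array (adjusted p = 0.0806 to 0.141). Of the 12 core pluripotency genes, 2 were lower and 0 higher, and Pou5f1 read 7017 and 8644 against 7465 and 7129 (0.09 ± 0.11) and Nanog 7799.7 and 7753 against 8347 and 8761 (-0.14 ± 0.11). The STAT3 feedback gene Socs3 read 2660.0 and 3273 against 2903 and 2486 (0.14 ± 0.20, adjusted p = 0.704), with overlapping groups. The 3 called genes of the LIF receptor and STAT3 list were lower, Junb, Pim1 (-0.64 ± 0.18; adjusted p = 0.239 without CsA replicate 2 and 0.248 without no-CsA replicate 2) and Cish (-0.55 ± 0.15; adjusted p = 0.125 without CsA replicate 1 and 0.138 without no-CsA replicate 2). Primed epiblast genes had 3 of 10 lower, Pou3f1 (-1.16 ± 0.33), Fgf15 and Lef1. Otx2 and Dnmt3b differed by -0.11 and -0.44 and were not called, and Fgf5 did not pass the detection filter at day 0. The Pou3f1 call ended without CsA replicate 1 or no-CsA replicate 2 (adjusted p = 0.181 and 0.158).

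Of markers of other cell types, beside 15.2% of all genes called, primitive endoderm had 1 higher and 1 lower of 10 measured, trophectoderm 2 higher of 8, mesendoderm 1 higher and 1 lower of 8, neuroectoderm 1 lower of 4, fibroblast 0 of 8 and the 2-cell state 0 of 2. Summed intensities of the trophectoderm list were 3607 and 2552 with CsA, against 2176 and 2112 without, most of it from Tfap2c (2808 and 1673 with CsA, against 1437 and 1286 without), and those of the primitive endoderm list 6462 and 6422, against 5374 and 5187. Fibroblast sums were 6207 and 5899 with CsA and 5789 and 7056 without, which overlap. Mesendoderm sums were 561 and 578 with CsA, against 493 and 589 without, and neuroectoderm sums 804 and 819, against 1014 and 842; 2-cell sums were 6274 and 6029, against 6417 and 6511, nearly all from Eif1a. Several defining markers did not pass the detection filter, which asks for both arrays of at least 1 group. They included Gata6 and Sox17 of primitive endoderm, Hand1 and Elf5 of trophectoderm, Mixl1 of mesendoderm and Sox1 of neuroectoderm. For fibroblasts they included Col1a1, Col1a2, Col3a1 and Dcn. The higher trophectoderm genes were the transcription factor Tfap2c (0.67 ± 0.22; adjusted p = 0.511 without CsA replicate 1, 0.0758 without no-CsA replicate 1 and 0.2 without no-CsA replicate 2) and the keratin Krt18 (0.57 ± 0.18; adjusted p = 0.072 without CsA replicate 1, 0.204 without CsA replicate 2, 0.158 without no-CsA replicate 1 and 0.0753 without no-CsA replicate 2). Other probes of Tfap2c differed by 0.27 and 0.42 and were not called. Pax6, a neural factor, was at least 2.00-fold lower, with 42.4 and 34.0 on the CsA arrays, 1 of which detected it, against 74.4 and 82.4 on the no-CsA arrays. The part of other cell types in the day 0 differences was not tested.

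Of 11 measured genes of calcineurin, NFAT and their feedback, 1 was called, against 15.2% of all genes. It was Nfatc3, which was higher (0.40 ± 0.13, adjusted p = 0.045). Its difference was 0.35 without CsA replicate 1, 0.46 without CsA replicate 2 and 0.19 without no-CsA replicate 2. The call was lost under 11 of 17 alternatives, among them leaving out any of these arrays, median scaling and the mean of all kept probes. Other Nfatc3 probes differed by 0.33, 0.06, 0.25 and 0.27 and were not called. The catalytic subunit genes Ppp3ca, Ppp3cb and Ppp3cc differed by 0.02 ± 0.16, -0.29 ± 0.13 and 0.32 ± 0.22, and the regulatory subunit gene Ppp3r1 by -0.31 ± 0.13. Rcan1, a calcineurin inhibitor whose short form NFAT induces, read 758 and 759.8 with CsA, against 867 and 774 without (-0.11 ± 0.13, adjusted p = 0.627); the isoform its probe reads is not given in the sources used here. Nfat5, Nfatc2, Nfatc4, Nfatc2ip and Rcan3 differed by 0.33, 0.09, 0.27, 0.12 and -0.16 and were not called. Of 9 cyclophilins, the family of proline isomerases that holds the targets CsA binds, 2 were higher and 1 lower. The abundant cytosolic form Ppia read 25897 and 24736 against 27389 and 26496 (-0.09 ± 0.09). Ppib, the cyclophilin of the ER lumen and a member of the chaperone list as well, was higher (0.42 ± 0.12), and its call ended without CsA replicate 1 or 2 or no-CsA replicate 2 (adjusted p = 0.2, 0.0519 and 0.258). Nktr was called higher from its brightest probe (0.72 ± 0.19) and Ppil1 lower (-0.48 ± 0.13); 2 other Nktr probes differed by -0.17 and 0.21 and were not called. The Nktr call ended without CsA replicate 1 or either no-CsA replicate (adjusted p = 0.213, 0.0647 and 0.0511), and that of Ppil1 without CsA replicate 1 or no-CsA replicate 2 (0.196 and 0.272).

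Several of the 12 genes with the largest increases and the 12 with the largest decreases lay outside these lists. Snhg11, a noncoding host gene of small nucleolar RNAs, read 819.6 and 1141 with CsA, against 307 and 286 without (1.71 ± 0.16). Rapgef3 (Epac1), an exchange factor activated by cyclic AMP, read 111 and 133 against 39.2 and 48.9 (1.47 ± 0.20), and Mocos, which activates molybdenum cofactor enzymes, 468 and 395 against 176 and 139 (1.46 ± 0.16). Both sets of 12 were taken from called genes whose groups did not overlap, so their separation is no further result. Eif4g3, a translation initiation scaffold, was higher (1.37 ± 0.16), as were Gm9918 (1.57 ± 0.20) and Ubap1l (1.63 ± 0.47). The call of Ubap1l ended without CsA replicate 1 or no-CsA replicate 2 (adjusted p = 0.157 and 0.201).

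Among the lowered genes, Neurog3, a factor of endocrine progenitors, Lypd2 and Igfbpl1 were not detected on either CsA array and were at least 2.69-, 2.70- and 2.10-fold lower; a second Igfbpl1 probe differed by -0.23 and was not called. The neurofilament gene Nefh read 56.6 and 94.0 with CsA, against 183 and 260.3 without (-1.58 ± 0.29). Ina, alpha-internexin, was at least 2.73-fold lower and detected on 1 of 2 CsA arrays. The proton pump gene Atp12a read 54.5 and 43.9 against 175 and 120.4 (-1.57 ± 0.37), with adjusted p = 0.0551 without CsA replicate 2 and 0.0696 without no-CsA replicate 1. Fbxw5 had the widest gap, at 22.2 and 30.1 on the CsA arrays, neither of which detected it, against 614 and 697 on the no-CsA arrays, at least 18.3-fold lower (adjusted p = 0.0112). Its probe also split replicates elsewhere, with 812 and 801 on the day 1 arrays with CsA, against 27.2, not detected, and 772 on those without. Its call ended without CsA replicate 1 or no-CsA replicate 2 (adjusted p = 0.082 and 0.0706). Of 4758 detected probes without a gene name, 455 were called (9.56%), 306 higher and 149 lower; the count was 111 without CsA replicate 1, 284 without CsA replicate 2 and 178 without no-CsA replicate 2.

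The day 0 differences were next followed to days 1 and 3 of LIF withdrawal, where other arrays with and without CsA were compared. At day 1, 1168 genes were called (11.7%), 613 higher (6.15%) and 555 lower (5.57%). Of the 712 genes higher at day 0, 694 had a positive difference at day 1 and 334 were called higher again, which is 46.9% of the day 0 list and 54.5% of the day 1 list. Of the 804 lower genes, 760 had a negative difference and 329 were called lower again, 40.9% of the day 0 list and 59.3% of the day 1 list. In neither direction was a gene called the opposite way. The 663 calls shared by the days were 318 without CsA replicate 1 and 431 without no-CsA replicate 2 of day 0. The median difference at day 1 was 0.45 over the 712 higher and -0.39 over the 804 lower genes of day 0, against 0.00 over all genes. Across the 9966 genes, day 0 and day 1 differences correlated at r = 0.691 (Spearman's rho 0.653), as a description over genes measured on the same array design. The interaction, which tests whether the CsA difference at day 1 departs from that at day 0, was called for 0 genes (limma, adjusted p under 0.05), against 567 at an unadjusted p under 0.05 and between 0 and 7 called under the alternatives.

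At day 3 many more genes differed, 3898 (39.1%), of which 2023 were higher (20.3%) and 1875 lower (18.8%). Of the day 0 lists, 444 of 712 higher genes (62.4%) and 491 of 804 lower genes (61.1%) were called the same way, 21.9% and 26.2% of the day 3 lists, while 26 and 40 were called the opposite way. The 935 calls made the same way were 332 without CsA replicate 1 and 480 without no-CsA replicate 2 of day 0. Day 0 and day 3 differences correlated at r = 0.488 (rho 0.472) across genes, and the interaction was called for 1515 genes (15.2%), 8.56% of all genes with a positive and 6.64% with a negative value. The ER lists kept their direction, with 14 and 16 of 19 chaperones and 16 and 17 of 23 degradation and translocation genes higher at days 1 and 3. The shares of all genes higher at those days were 6.15% and 20.3%. Of the 14 measured ERSE genes, 8 were higher and 0 lower at day 1, and 12 were higher and 1 lower (Spats2l, -1.58) at day 3. Acacb, Pan2 and Zfp57 were higher at day 3 without a call at day 0, and Adcy3 was called at day 0 alone. Ddit3, Sdf2l1 and Cox6a2 were higher at each day, with differences of 1.62 ± 0.20, 1.62 ± 0.20 and 2.54 ± 0.20 for Ddit3 at days 0, 1 and 3. Lefty1 and Ccno were lower at each, with differences for Ccno of -2.17 ± 0.23, -2.17 ± 0.23 and -1.13 ± 0.23.

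Other genes had different CsA differences at day 3. Naive pluripotency genes, at 2 higher of 19 on day 0, had 8 higher at day 1 and 17 at day 3. Over all genes, 6.15% and 20.3% were higher at those days. Klf4 differed by -0.07 ± 0.17, 0.69 ± 0.17 and 2.03 ± 0.17 at days 0, 1 and 3. The interaction for Klf4 at day 3 was 2.10 ± 0.24 (limma, adjusted p = 1.75e-06). Nanog differed by -0.14 ± 0.11, 0.49 ± 0.11 and 0.98 ± 0.11 (interaction at day 3, 1.12, adjusted p = 1.83e-05). Eif4g3 was higher at days 0 and 1 and lower at day 3 (-0.54 ± 0.16), and Gadd45g, a stress and growth arrest gene, was lower at days 0 and 1 (-0.97 ± 0.16 and -0.91 ± 0.16) and higher at day 3 (0.92 ± 0.16). Their interactions at day 3 were -1.91 ± 0.22 (adjusted p = 2.08e-06) and 1.89 ± 0.22 (adjusted p = 2.15e-06). Egr1 was lower at each day, with differences of -1.47 ± 0.26, -1.01 ± 0.26 and -3.90 ± 0.26, and its interaction at day 3 was -2.44 ± 0.37 (adjusted p = 5.97e-05).

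**Figure D4:**
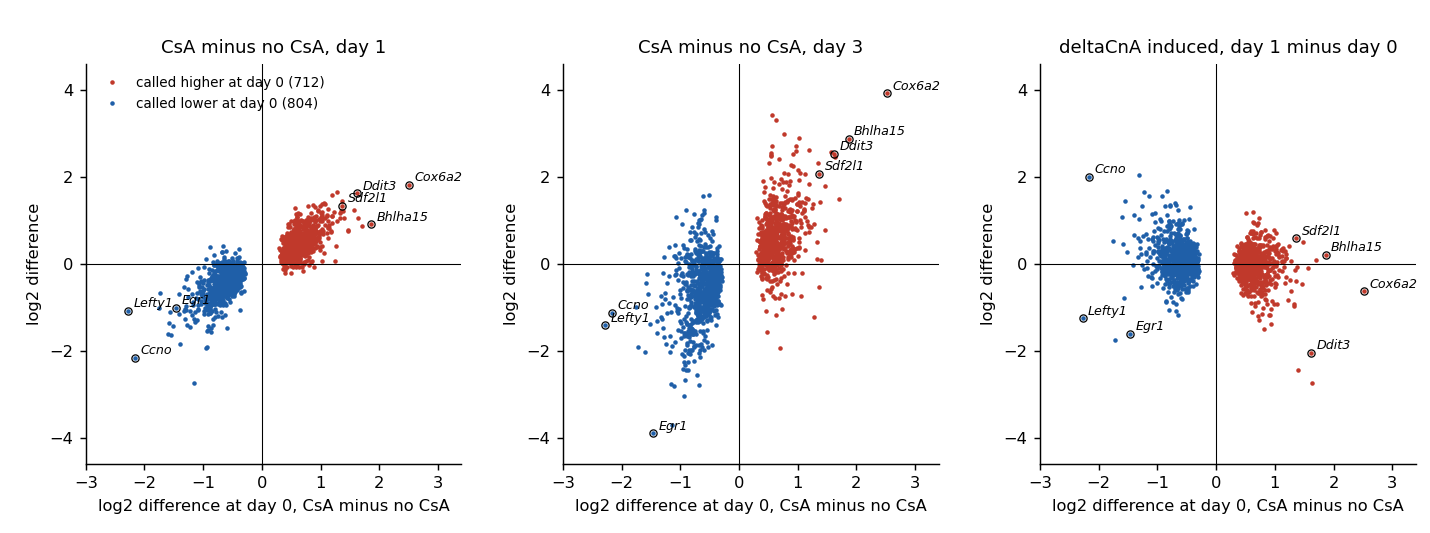
Each point is a gene called at day 0 (red higher, blue lower with CsA), with its day 0 log2 difference on the horizontal axis and, on the vertical axis, its log2 difference between CsA and no CsA at day 1 (left) and day 3 (middle) or between day 1 and day 0 of deltaCnA induction (right). At day 1, 694 of 712 red points lie above 0 and 760 of 804 blue points below it; Fbxw5 lies outside the range drawn.

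Induction of deltaCnA was measured in another line and shares no array with the day 0 comparison. After 1 day, 1224 genes were called (12.3%), 716 higher (7.18%) and 508 lower (5.1%) against day 0 of induction. Of the 712 genes higher with CsA, 69 were lower (9.69% of them) and 48 higher (6.74%) on induction; of the 804 lower with CsA, 114 were higher (14.2%) and 38 lower (4.73%). Across genes the 2 sets of differences correlated at r = -0.134 (rho -0.115). At day 4, 386 genes were called (3.87%), 294 higher (2.95%) and 92 lower (0.923%), and the day 0 higher genes had 5 called lower and 47 called higher, the day 0 lower genes 26 called each way. The 183 opposite calls at day 1 of induction were 60 without CsA replicate 1 and 80 without no-CsA replicate 2, and the 31 at day 4 were 11 and 16.

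Of the 21 genes of the integrated stress response, 12 were lower and 0 higher at day 1 of induction. Over all genes, 5.1% were lower and 7.18% higher at day 1, and 0.923% lower and 2.95% higher at day 4. Ddit3 read 158 and 231 at day 1, against 731 and 855 at day 0 of induction (-2.05 ± 0.20, adjusted p = 1.47e-06). Its day 1 arrays lay below both day 0 arrays of that line, and at day 4 it read 1018 and 1155 (0.46 ± 0.20 against day 0, adjusted p = 0.255). Before induction, Ddit3 in that line was near the day 0 CsA arrays (747 and 885) and above the no-CsA arrays (289.9 and 239.9). At day 4, 0 genes of the list were called in either direction. Vldlr, Cebpb, Atf5, Jdp2 and Trib3, all higher with CsA, were lower at day 1 of induction, with differences of -2.44, -1.39, -1.18, -1.16 and -1.19. Chac1 and 9 of 17 aminoacyl-tRNA synthetases, none of which was called with CsA, were also lower at day 1. The 19 ER chaperones had at day 1 3 higher (Sdf2l1, Fkbp11 and P4hb) and 0 lower, the same direction as with CsA. Cholesterol genes had 8 higher and 0 lower of 19, again the direction seen with CsA. At day 4, 0 ER chaperones were called, and 1 cholesterol gene was higher and 1 lower.

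Among the genes lower with CsA, several G1 cyclins were higher at day 1 of induction. The list of 19 G1 genes had 5 higher and 4 lower at that day, beside 7.18% and 5.1% of all genes. At day 4 it had 0 higher and 1 lower, beside 2.95% and 0.923% of all genes. Ccno read 307 and 207 at day 1, against 80.8 and 49.4 at day 0 of induction (2.00 ± 0.23, adjusted p = 7.61e-06), and Ccnd2 (2.05 ± 0.23), Ccne1 (0.91 ± 0.16) and Ccnd1 (0.42 ± 0.11) were higher as well. At day 4, Ccno read 53.8 and 36.9 (-0.50 ± 0.23 against day 0, adjusted p = 0.268). Before induction, Ccno in that line was near the day 0 CsA arrays (51.2 and 61.5) and below the no-CsA arrays (223 and 285). Lefty1 in that line, at 5041 and 5173, lay above both groups. At day 1, Neurog3 (1.45 ± 0.25) and Lypd2 (1.08 ± 0.23) were higher too. Lefty1, Lefty2 and Egr1 were lower in both comparisons: on induction, Lefty1 read 1370 and 3343 at day 1, against 5041 and 5173 at day 0, and the differences were -1.25 ± 0.29, -1.75 ± 0.29 and -1.61 ± 0.26. At day 4 these 3 genes were lower as well (-1.21 ± 0.29, -1.27 ± 0.29 and -1.19 ± 0.26). Cdkn1c was lower with CsA and at day 1 of induction (-0.53 ± 0.13), and was not called at day 4 (-0.09 ± 0.13). Rcan1 was not called at day 1 of induction (-0.20 ± 0.13).

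**Figure D5:**
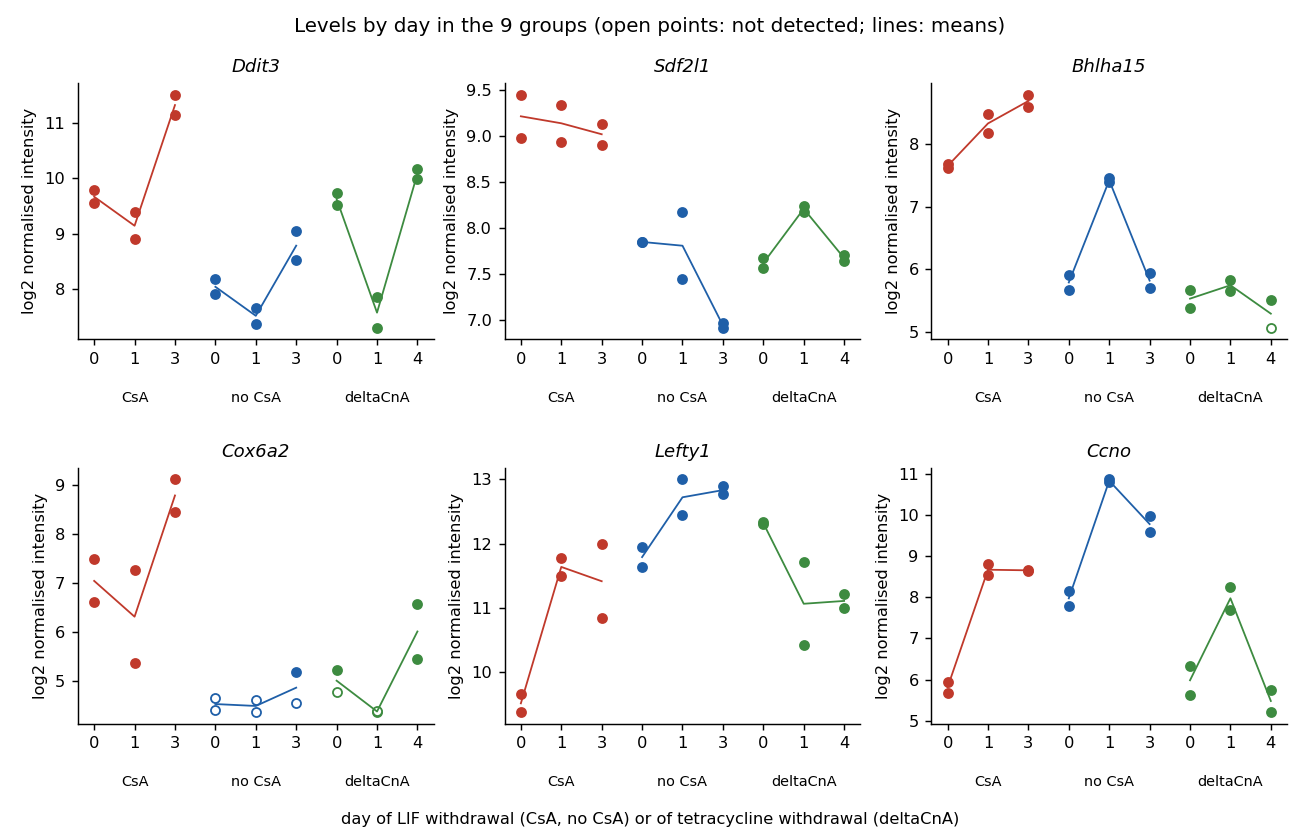
Log2 normalised intensity (vertical axis) of 6 genes is plotted on all 18 arrays by day, for LIF withdrawal with CsA (red), without CsA (blue) and for deltaCnA induction (green), with lines through the means of 2 arrays and open points where the probe was not detected. Both CsA arrays lie above both no-CsA arrays at day 0 for Ddit3, Sdf2l1, Bhlha15 and Cox6a2 and below them for Lefty1 and Ccno.

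Withdrawal of LIF without CsA is measured against the same day 0 arrays, so its values are given beside those of CsA as values only. After 1 day without LIF, 8.99% of all genes were called, 3.73% higher and 5.26% lower. Ccno differed by -2.17 ± 0.23 with CsA at day 0 and by 2.87 ± 0.23 after 1 day without LIF. Pou3f1 and Lef1, lower with CsA, differed by 3.48 ± 0.33 and 1.84 ± 0.27 after 1 day, and Cdkn1c by 1.13 ± 0.13. Ddit3 and Sdf2l1 differed by -0.52 and -0.04 and were not called at that day.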

How the data were processed

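RNA from 18 samples of mouse embryonic stem cells, 2 in each of 9 groups, was read on 18 arrays. The deposited table holds the authors' non-normalized intensity of 46632 probes on each array and a detection p-value, per the file headers. A second deposited table holds the authors' processed intensity, on a linear scale with array medians near 10.9 and the same rank order within each array as the non-normalized values; its normalization method is not given in the sources used here, and it was used only as an alternative. Genes were named through the platform annotation: 29976 probes had 1 symbol, 10 several and 16646 none. Intensities were background-corrected with the normexp model fitted from the detection p-values (offset 16), quantile-normalised over the 18 arrays and put on the log2 scale in limma 3.58.1 (R 4.3.3). Probes detected at p under 0.05 on both arrays of at least 1 day 0 group were kept, and the brightest probe stood for a gene, as 3175 of the 9966 genes had several kept probes. Group means were fitted with limma (moderated with an intensity trend, 9 residual degrees of freedom, Benjamini-Hochberg adjustment over all genes), and called means an adjusted p under 0.05. Where the dimmer group was not detected on both arrays, the fold is a lower bound, computed from each array's lowest detected signal or the probe's own, whichever was higher. The number of arrays limits the precision. The fit was tested on simulated data. Arrays were grouped by their titles; the 2 groups of day 0 were compared, then days 1 and 3 and deltaCnA induction, from the same fit. Promoters are from RefSeq (GRCm38.p6). Genes named in the text are the 12 largest changes in each direction with groups that do not overlap, 6 markers, up to 5 called members of each list in each direction, all calcineurin and cyclophilin genes and 6 genes of cell state; others were chosen after their values were seen. The members and gene lists were chosen with earlier results of these data known. Alternatives changed the normalization, background, filters, probe choice, the fit and the arrays included.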

Additional observations from a re-analysis of the deposited data

Results flagged for a closer look

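The CsA difference at day 3 departed from that at day 0 for 49 of the 195 genes named, by the limma interaction over all genes (adjusted p from 6.36e-09 to 0.0398), and at day 1 for 0 of them. The day 3 interaction was called for 15.2% of all genes. Many named genes were chosen by their day 0 values, which the interaction also uses, and some after their day 3 values were seen. The count of named genes is thus no further result. Each value is the day 3 difference minus the day 0 difference on the log2 scale. It was negative for 24 genes and positive for 25.

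Of genes of growth factor and immediate early signalling, the values were Egr1 (-2.44), Dusp6 (-1.94), Phlda1 (-1.60), Junb (-1.47), Socs3 (-1.17), Dusp5 (-1.12), Etv4 (-0.96), Gsk3b (-0.67), Smad3 (-0.60), Fzd5 (0.72) and Fgf4 (1.62). Among pluripotency and primed epiblast genes they were Pou3f1 (-1.59), Sox2 (0.61), Dppa2 (0.82), Nanog (1.12), Zfp42 (1.35), Nr5a2 (1.39), Klf4 (2.10), Pecam1 (2.21) and Tbx3 (2.86). Germline and contractile genes had values of Tpm1 (-2.12), Pdlim7 (-1.53), Cnn2 (-1.53), Dazl (1.16) and Khdc3 (1.36). Stress, ER and sterol genes had Vldlr (-1.31), Slc2a1 (-0.84), Dnajb1 (-0.84), Msmo1 (-0.74), Sqle (-0.60), Hsp90b1 (0.58), Gsta4 (0.69), Ssr2 (0.75), Ddit3 (0.91), Bhlha15 (1.01) and Gadd45g (1.89). Genes of NFAT feedback, Ccno and markers of other cell types had Dab2 (-1.38), Krt18 (-0.95), Rcan3 (0.67), Ccno (1.04), Tfap2c (1.17) and Nfatc2ip (1.21). The remaining genes were Plekhg2 (-2.64), Tmem80 (-2.51), Eif4g3 (-1.91), Spats2l (-1.77), Gm9918 (1.00), Zfp57 (1.39) and Twf2 (2.14). 

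Among the largest, Tbx3 differed by 0.56 ± 0.17 at day 0 and 3.42 ± 0.17 at day 3, Pecam1 by 0.77 ± 0.16 and 2.99 ± 0.16, and Tpm1 by -0.68 ± 0.13 and -2.80 ± 0.13.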

How the results depend on the processing

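Of 326 values of 20 counts recomputed under alternatives, 255 were within 1.5 times the count reported and 71 were not. The 4 day 0 arrays normalised and fitted alone gave 979 calls (473 higher, 506 lower), 300 unnamed probes and 5 DNA replication genes; fitted alone after joint normalisation they gave 1000 calls, 517 of them lower, and 5 DNA replication genes. Fold sizes depended on the background: genes called and at least 2-fold changed were 115 higher and 128 lower with no further background correction, 22 and 20 with an offset of 50, and 124 and 139 from the authors' processed values, while detection at p under 0.01 on all 4 arrays left 32 lower. Integrated stress response calls were 5 under median scaling, without an intensity trend and from the processed values, and 3 without a detection filter. Without the trend 4 DNA replication genes were called, and with the mean of all kept probes 3 NRF2 targets. Without a detection filter 294 unnamed probes were called, and the day 0 calls called oppositely on deltaCnA induction were 97 at day 1 and 14 at day 4. The day 1 interaction was called for 1 gene under median scaling, without a detection filter, with detection at p under 0.01 on all 4 arrays and with a replicate block, for 2 with an offset of 50 and for 7 with detection on both arrays of any of the 9 groups. Leaving out 1 day 0 array gave 503 to 1110 calls (247 to 498 higher, 256 to 612 lower), 59 to 100 genes at least 2-fold lower, 111 to 359 unnamed probes, 318 to 501 calls shared with day 1 and 332 to 677 with day 3, 0 to 1 day 1 interactions, and 60 to 171 opposite calls at day 1 and 11 to 23 at day 4 of induction. In the lists it gave 10 to 14 ER chaperones, 8 to 12 degradation and translocation genes, 3 to 8 integrated stress response genes, 2 to 4 cholesterol genes, 1 to 4 NRF2 targets, 2 to 5 DNA replication genes and 3 to 6 G1 genes. A group left with 1 array was assumed to vary like the others. The cause of these changes was not tested, apart from the fewer arrays.

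Of 195 genes named, 128 were called, 54 of these under every alternative that measured them (detection at p under 0.01 on all 4 arrays kept 111 of the 128) and 27 lost only by leaving out an array; 1 reversed, Fzd5, at -0.13 with the mean of all kept probes. Under median scaling 12 ER chaperones and 11 degradation and translocation genes were called higher and 14 DNA replication genes lower, and the median of all genes was -0.07. The labels do not say whether arrays of the same replicate number belong together. Deviations of same-numbered day 0 arrays correlated at 0.347, and over all 36 pairs of groups from -0.222 to 0.370, with a median of 0.050. The day 0 value thus lay near the highest, and a shared batch was not tested. With the replicate number as a block 1720 genes were called, and all 128 called genes named kept their calls. The chip as a block was not run, since the headers give no chip, and later days and deltaCnA induction have no value where only the 4 day 0 arrays were fitted, nor deltaCnA with 12 arrays. Probes near background limit the folds of dim genes such as Hspa5, Lef1 and Cox6a2.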

Other observations

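Of 11 measured oocyte and germline genes, 1 was higher with CsA at day 0 and 2 were lower, beside 7.14% and 8.07% of all genes. Dazl, an RNA-binding protein of germ cells, was higher (0.58 ± 0.18; adjusted p = 0.127 without CsA replicate 1, 0.137 without CsA replicate 2 and 0.22 without no-CsA replicate 1). Khdc3, a protein of the oocyte, read 1299.7 and 1292 with CsA, against 2245 and 1853 without (-0.65 ± 0.16; adjusted p = 0.0563 without CsA replicate 1 and 0.083 without no-CsA replicate 1), and the X-linked homeobox gene Rhox5 was lower too (-0.48 ± 0.16; adjusted p = 0.193 without CsA replicate 1, 0.111 without CsA replicate 2, 0.191 without no-CsA replicate 1 and 0.0837 without no-CsA replicate 2). Contractile genes moved in both directions: the tropomyosin gene Tpm1 read 343 and 345 with CsA, against 531 and 569 without (-0.68 ± 0.13), and the calponin gene Cnn2 read 161 and 135 against 310.2 and 247 (-0.91 ± 0.19), while Pdlim7 was higher (0.45 ± 0.12; adjusted p = 0.0793 without CsA replicate 2 and 0.201 without no-CsA replicate 2). Of 12 genes listed as p53 targets, 1 was called, beside 15.2% of all genes. It was Gadd45g, which was lower (-0.97 ± 0.16), and p53 activity was not tested. Mdm2, Cdkn1a and Bbc3 differed by 0.11, -0.23 and -0.25 and were not called.

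Some genes were called one way at day 0 and the other way at day 3, and the following 3 were chosen after their values were seen. Plekhg2 differed by 0.70 ± 0.16 at day 0 and -1.94 ± 0.16 at day 3. Tmem80 differed by 1.28 ± 0.19 and -1.23 ± 0.19. Twf2, which binds actin, differed by -1.07 ± 0.11 and 1.07 ± 0.11.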
